A study of Mus musculus with 4 samples.

Results

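The cells described here are villus fibroblasts of the mouse small intestine with little RNA of the YAP target genes Vegfc and Amotl2 and little RNA of the immediate early genes Fos, Fosb and Egr1. They came from 1 droplet library, LATS1/2 KO 1w, made from adult C57BL/6J mice that carried Pdgfrb-CreERT2 (a Cre recombinase switched on by tamoxifen and driven by Pdgfrb sequences), a tdTomato reporter and floxed alleles of the kinase genes Lats1 and Lats2, at 1 week. Cells were sorted on the reporter and read with a kit that counts the 3-prime ends of transcripts, so the library holds Cre-active stromal cells of that driver only, and a reporter signal does not show that all 4 floxed alleles of a cell were deleted. The series has 4 samples in 3 groups. The 2 wild-type libraries and the library of LATS1/2 KO 2w were not analysed here, so that no value below compares knockout with wild type. The labels do not say how many mice were pooled.

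The rule took 542 of 4108 cells, or 13.2% (12.2 to 14.3, exact binomial interval). Of the 4108 cells, 3819 had a transcript of Adamdec1, a secreted metalloprotease gene of villus fibroblasts. Limits on genes of other stromal classes then left 3114, 2875, 2648 and 2582 cells. The class genes were Ackr4, Grem1, Cilp, Scara5, Pcolce2 and Lbp (at most 2 with a transcript), Sox6, Bmp5 and Wif1 (at most 1), Rgs5, Vtn, Actg2 and Cnn1 (at most 1), and Tacr1, Itga8 and P2rx1 (at most 1). A sum of Vegfc and Amotl2 of at most 1 unique molecular identifier (UMI, 1 counted molecule) per 10000 UMIs of the cell left 949 cells, and a sum of Fos, Fosb and Egr1 below 15 left the 542 members. The same limits split the rest of the 2582 gated cells into 984 with high YAP targets and low immediate early genes, 407 with low YAP targets and high immediate early genes, and 649 high in both. These 3 sets are called here the YAP-target-high cells, the cells with high immediate early genes, and the cells high in both. The share of 13.2% depended on the limits. It was 19.8% with at most 2 UMIs of Vegfc and Amotl2 per 10000 and 20.1% without the limits on other classes.

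Because measured transcripts chose the members, all differences below are descriptions of these cells and carry no test. With 1 library the cells are not replicates. A level (CPM) is a gene's UMI sum over a set of cells, scaled to 1000000 UMIs of that set, a ratio is the level in the members over the level in the other set, and brackets give exact 95% intervals that cover counting error only and not the variation between mice. Levels are compared between sets for 1 gene, not between genes.

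YAP and its partner TAZ are transcriptional coactivators that act on DNA through TEAD factors. The Hippo kinases LATS1 and LATS2 phosphorylate YAP and TAZ and hold them in the cytoplasm, so that loss of both kinases lets them enter the nucleus and raise target genes such as Ctgf, Cyr61 and Amotl2. Villus fibroblasts lie under the gut epithelium beside capillaries and the lacteal, the lymphatic vessel that takes up dietary fat, and supply matrix and signals such as VEGF-C to them. Immediate early genes such as Fos and Egr1 are transcribed within minutes of a stimulus.

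The members were somewhat shallower than the cells around them. Their median was 9536.5 UMIs per cell (range 1965 to 20619) and 3067.5 genes, against 10784.5 UMIs in the YAP-target-high cells, 10046 in the cells with high immediate early genes and 11738 in the 1526 cells outside the gate. The limit on Vegfc and Amotl2 is tied to depth. Of the members, 443 had no UMI of either gene, 98 had 1 and 1 cell had 2, and a cell with 1 such UMI passed only when it held 10000 UMIs or more. The median share of mitochondrial UMIs was 5.27% in the members and 5.11% in the YAP-target-high cells. Column names carried the marks M (281 members) and F (261 members), which follow Xist and split 1 library, and no cell barcode stood under both marks.

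The label was checked on markers the rule did not use. Serpina3n, an acute-phase protease inhibitor gene of villus fibroblasts, stood at 156 CPM in the members, against 83.5 in the YAP-target-high cells and 247 in the cells with high immediate early genes. Shisa3 stood at 81.4 CPM, inside the range of 79.3 to 93.4 over all other sets. Against all 3566 other cells Serpina3n and Shisa3 together had a ratio of 0.977 (0.920 to 1.04), so they did not set the members apart. Endothelial markers gave 4 UMIs in all over the members, with Pecam1, Cdh5 and Tie1 at 0, and epithelial markers gave 1 UMI, with 5 of 6 at 0. Enteric glia markers gave 8 UMIs, with Sox10, Gfap and Sox2 at 0. Of the 3 markers of interstitial cells of Cajal, the pacemaker cells of the gut, Ano1 was at 0 and Kit had 2 UMIs. The remaining one, Etv1, stood at 40.4 CPM, 1.70-fold above the YAP-target-high cells (1.41 to 2.05) and 1.51-fold above the cells with high immediate early genes (1.19 to 1.92). Of the 6 immune markers Ptprc was at 0, and the summed level was 43.9 CPM in the members against 48.2 in the YAP-target-high cells and 33.1 in the cells with high immediate early genes. Its members went both ways against the YAP-target-high cells, with Cd74 at 25.3 against 14.5 CPM, Cd52 at 3.09 against 0.995 and Lyz2 at 11.6 against 29.9. The part of these cell types in the results below was not tested. Rgs5, a mural gene that the rule allowed as the 1 gene of its group, stood at 479 CPM in the members and 476 CPM in the YAP-target-high cells. The 6 mural markers together, Rgs5 among them, stood at 492 CPM in the members. They stood at 763 CPM in the cells with high immediate early genes and 793 CPM in the cells high in both.

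The first of the 5 genes given as markers is Cxcl13, the chemokine that draws B cells and other CXCR5-bearing cells into lymphoid follicles (chromosome 5, 95956951 to 95961068, plus strand, mm10). Its level was 211 CPM in the members, 137 in the YAP-target-high cells, 116 in the cells with high immediate early genes and 59.0 in the cells high in both. The members were 1.53-fold above the YAP-target-high cells (1.42 to 1.66) and 1.82-fold above the cells with high immediate early genes (1.63 to 2.04). Cxcl13 was thus higher in the members than in all 3 other gated sets, but its UMIs were concentrated. Of its 1089 UMIs in the members, 65.9% lay in the 55 cells that held most, and 212 members had any. Its ratio to the YAP-target-high cells was 1.22 in the columns marked M and 1.85 in those marked F, and its ratio to the cells with high immediate early genes was 3.03 and 1.15.

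Ramp2 encodes a small membrane partner that turns the receptor CALCRL into a receptor for adrenomedullin. Its levels were 267 CPM in the members, 134 in the YAP-target-high cells, 225 in the cells with high immediate early genes and 108 in the cells high in both, which gave ratios of 1.99 (1.85 to 2.14) and 1.18 (1.09 to 1.29) to the first 2 of these sets. It was the most evenly spread of the 5 markers, with 27.8% of its UMIs in the 55 cells that held most. P2ry1, a purinergic receptor for ADP, stood at 77.4 CPM in the members, 36.7 in the YAP-target-high cells and 72.3 in the cells with high immediate early genes. Kcns3, an electrically silent subunit of voltage-gated potassium channels, stood at 48.5, 21.4 and 35.5 CPM in the same order. Lrrc55, an auxiliary subunit of the large-conductance calcium-activated potassium channel, stood at 42.2, 18.9 and 43.0 CPM.

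All 5 markers were thus higher in the members than in the YAP-target-high cells, with a median ratio of 2.11. Against the cells with high immediate early genes only Cxcl13, Kcns3 and Ramp2 had intervals above 1. P2ry1 (1.07, 0.918 to 1.25) and Lrrc55 (0.981, 0.7996 to 1.204) did not separate these sets. Against all 3566 other cells the ratios ran from 1.91 for Cxcl13 to 2.61 for Kcns3.

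**Figure D1:**
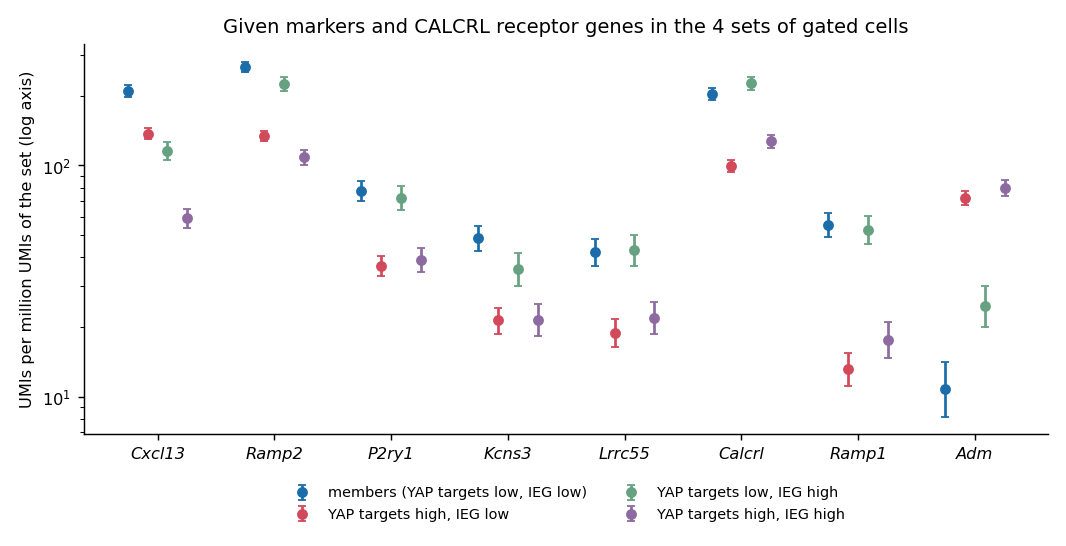
Level of the 5 given markers and of 3 genes of the CALCRL receptor in the 4 sets of gated cells, in CPM on a log axis. Points are pooled levels and bars exact 95% Poisson intervals, and Adm, the ligand gene, ran from 10.8 CPM in the members to 79.8 CPM in the cells high in both, opposite to Ramp1, Ramp2 and Calcrl.

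Across all genes, 39 of 8257 measured genes (0.472%) were at least 2-fold higher in the members than in the YAP-target-high cells, and 121 (1.47%) were at least 2-fold lower. The count of higher genes was 71 with at most 2 UMIs of Vegfc and Amotl2 per 10000, 83 in cells with no more than 5% mitochondrial UMIs, 64 in the columns marked F and 23 from means of per-cell levels. The median ratio over all genes was 0.997. These counts read the contrast on which the members were chosen, and 3 of the 5 given markers lay in the upper group.

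The highest ratio to the YAP-target-high cells among genes with a UMI in at least 10% of the cells of the higher set was that of Ramp1, which makes CALCRL a receptor for the neuropeptide CGRP (chromosome 1, 91179822 to 91225196, plus strand). It stood at 55.3 CPM in the members and 13.1 CPM in the YAP-target-high cells, a ratio of 4.22 (3.44 to 5.18). Calcrl itself stood at 204 and 99.8 CPM (2.05, 1.88 to 2.23). Adm, which encodes the ligand adrenomedullin, stood at 10.8 CPM in the members and 72.2 CPM in the YAP-target-high cells, a ratio of 0.150 (0.112 to 0.197). The receptor gene and both measured partner genes were therefore higher and the ligand gene lower on the same side of the limit. Ramp3 had 2 UMIs in the members and 4 in the YAP-target-high cells. In the cells with high immediate early genes, which share the low limit on YAP targets, Ramp1 stood at 52.7, Calcrl at 226 and Adm at 24.6 CPM. The Ramp1 ratio was 2.44 (1.78 to 3.35) in the columns marked M and 6.4005 (4.86 to 8.50) in those marked F. Outside the gate Ramp1 stood at 70.5 CPM, so a high level of it was not particular to the members.

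Bases upstream of 4 of these genes are shown, 2 higher and 2 lower in the members, because YAP and TAZ bind no DNA themselves and TEAD factors are known for the motif GGAATG. Each is the 250 bases before the RefSeq start on GRCm38.p6, 5′ to 3′ on the strand of the gene, none of them exonic in GENCODE M21, with GGAATG on either strand in capitals.
Cxcl13 (chr5:95956689-95956938, plus strand): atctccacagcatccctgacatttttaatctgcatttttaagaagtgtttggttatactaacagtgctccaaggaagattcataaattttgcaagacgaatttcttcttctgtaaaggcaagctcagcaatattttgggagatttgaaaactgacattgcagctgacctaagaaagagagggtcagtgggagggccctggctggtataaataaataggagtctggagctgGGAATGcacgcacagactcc
Ramp1 (chr1:91179572-91179821, plus strand): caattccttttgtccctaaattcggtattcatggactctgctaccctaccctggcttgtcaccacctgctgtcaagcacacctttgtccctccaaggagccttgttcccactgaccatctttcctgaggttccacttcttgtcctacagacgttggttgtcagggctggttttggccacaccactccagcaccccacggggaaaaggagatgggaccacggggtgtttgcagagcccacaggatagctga
Ogn (chr13:49607765-49608014, plus strand): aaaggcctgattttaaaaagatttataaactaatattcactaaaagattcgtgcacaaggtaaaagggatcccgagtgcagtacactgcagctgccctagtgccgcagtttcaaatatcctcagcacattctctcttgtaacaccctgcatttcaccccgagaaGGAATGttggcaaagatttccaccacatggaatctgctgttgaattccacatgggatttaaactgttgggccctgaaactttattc
Adm (chr7:110627407-110627656, plus strand): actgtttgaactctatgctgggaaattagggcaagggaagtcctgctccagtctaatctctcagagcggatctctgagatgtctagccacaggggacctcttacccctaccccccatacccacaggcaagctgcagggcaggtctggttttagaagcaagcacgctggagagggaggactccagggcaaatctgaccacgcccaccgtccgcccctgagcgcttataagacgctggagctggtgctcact

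Cxcl13 held GGAATG starting 20 bases before its start and Ogn 86 bases before, while the windows of Ramp1 and Adm held none, so a gene of each kind stood on either side of the contrast. Of all 32851 such windows 12.6% held the motif. Of genes with a window, 5 of the 25 at least 2-fold higher in the members, 13 of the 87 at least 2-fold lower and 798 of all 6522 measured held it, or 20%, 14.9% and 12.2%. None of the 4 windows held the AP-1 motif TGANTCA, which was in 6.75% of all windows and in 337 of the 6623 genes with a window measured against the cells with high immediate early genes (5.09%). It was in 9 of the 144 of them at least 2-fold lower in the members (6.25%) and in 4 of the 24 at least 2-fold higher (16.7%). A match is a run of letters in the reference and no evidence of binding.

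Several potassium channel genes stood above the YAP-target-high cells. Of 12 measured genes 6 were at least 2-fold higher and none lower, and the median ratio was 2.06. Of all 11984 genes that passed the filter for listed genes, 20 UMIs in both sets together, 1.72% were at least 2-fold higher and 2.64% at least 2-fold lower. The intervals of the 12 genes lay above 1 in 9 and below 1 in none, against 11.8% and 12.4% of all such genes. Of the 6, Kcns3 and Lrrc55 were given as markers of these cells, and Kcnk3, Kcnip1 and Kcne4 did not reach 10 CPM in both sets pooled. Of the other 7 measured genes 1 was at least 2-fold higher. Kcnk2, a two-pore channel opened by stretch, stood at 394 CPM in the members and 209 in the YAP-target-high cells. Kcnn3, a small-conductance calcium-activated channel, stood at 72.7 and 45.6 CPM. Kcnk3 (16.8 and 3.98 CPM) and Kcnip1 (4.45 and 0.814 CPM) were low in both. Against the cells with high immediate early genes the median ratio of the 12 genes was 0.929, with 4 at least 2-fold higher and 1 lower against 1.59% and 3.53% of all genes with 20 UMIs, and Kcnk2 was higher in those cells, at 477 CPM.

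Entpd1, the ectonucleotidase that breaks down extracellular ATP and ADP, stood with the ADP receptor P2ry1 at 60.7 CPM in the members against 26.6 in the YAP-target-high cells (2.28, 1.94 to 2.69). P2ry14, a receptor for UDP sugars, was lower, at 253 and 316 CPM, and Entpd2 did not separate the sets (1.01, 0.937 to 1.09). Over the 21 measured genes of purine, peptide and vasoactive signalling the median ratio was 1.05, with 4 at least 2-fold higher (P2ry1, Entpd1, Ramp1 and Calcrl) and 1 at least 2-fold lower (Adm), against 1.72% and 2.64% of all genes with 20 UMIs. P2ry1 and Calcrl lay near the 2-fold limit. Their ratios were 1.88 and 1.77 in cells of 8000 to 14000 UMIs and 1.71 and 1.78 in columns marked M.

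Among the Hippo genes the targeted kinases stood on opposite sides of the contrast. Lats1 stood at 16.4 CPM in the members, 9.77 in the YAP-target-high cells and 16.9 in the cells with high immediate early genes, a ratio of 1.68 (1.25 to 2.26) to the YAP-target-high cells. When the rule was applied to cells thinned to 5000 UMIs, without the 94 cells under that depth, the ratio was 1.17. Lats2, which is itself a YAP target, stood at 34.0, 61.8 and 40.01 CPM. Reads from the 3-prime end need not lie in the floxed exons, so these levels do not measure deletion. Yap1 did not separate the members from the YAP-target-high cells (42.2 and 40.6 CPM, ratio 1.04, 0.878 to 1.22), and Wwtr1, which encodes TAZ, was higher in the members (149 and 112 CPM).

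The DNA-binding partner Tead1 stood at 67.5 CPM in the members and 125 in the YAP-target-high cells (0.541, 0.480 to 0.609), whereas Tead2 and Tead3 had intervals that held 1. Vgll3, a cofactor of TEADs, stood at 23.6 and 86.5 CPM. Ajuba and Wtip, LIM proteins that bind LATS kinases, stood at 4.06 against 12.3 and at 63.4 against 104 CPM. Sav1, Mob1a, Mob1b, Nf2, Stk3 and Stk4, the core of the upstream cascade, all had intervals that held 1. Of the 23 measured Hippo genes 3 had intervals above 1 (11.8% of all genes with 20 UMIs did) and 7 below (12.4%), so the share above was near that of all genes.

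The YAP/TAZ target signature, taken without Vegfc and Amotl2, was lower in sum in the members, at 0.887 of the level in the YAP-target-high cells (0.865 to 0.909). Of its 19 measured genes 8 had intervals below 1 and 2 above, against 12.4% and 11.8% of all genes with 20 UMIs, and the median ratio was 0.776. Crim1 stood at 0.327 of its level in the YAP-target-high cells (0.276 to 0.385), Myof at 10.1 against 24.5, Cyr61 at 131 against 198 and Ctgf at 53.4 against 79.1. Axl (203 against 149 CPM) and Gadd45a (28.8 against 16.7 CPM) were higher in the members. Igfbp3 did not separate the sets (0.983, 0.936 to 1.03). The members were thus low in part of the signature and not in all of it. Ctgf and Cyr61 also followed the immediate early limit, in opposite directions. Ctgf, whose ratio of 2.94 to the cells with high immediate early genes was 1.78 without the limits on other classes, stood at 18.1 CPM and Cyr61 at 364 CPM in the cells with high immediate early genes.

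Secreted ligand genes stood on both sides of the contrast. Of 18 measured VEGF, angiopoietin and neurotrophic ligands 3 were at least 2-fold higher in the members (1.72% of all genes with 20 UMIs were) and 3 at least 2-fold lower (2.64%), with a median ratio of 0.993. Bdnf, a neurotrophin, stood at 1.55 CPM in the members and 31.4 CPM in the YAP-target-high cells (0.0493, 0.0211 to 0.0982). Bmp3, a BMP family member that opposes BMP signals, stood at 1.74 and 24.8 CPM (0.0702, 0.0318 to 0.135). Both levels in the members were near the level that RNA from other cells could give, 1.56 CPM for Bdnf and 1.97 CPM for Bmp3, a bound of 8.64% of the level in all cells that came from UMIs of Y-linked genes in cells holding 5 or more UMIs of Xist. The Bdnf ratio was 0.144 with the rule applied at 5000 UMIs, 0.0172 with no UMI of Vegfc or Amotl2 allowed and 0.0955 with at most 2 per 10000. Neither gene can be called expressed in the members at this depth.

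Angpt1 and Angpt2, ligands of the vascular receptor TIE2, were also lower, at 11.4 against 26.5 and at 3.67 against 16.3 CPM. Pgf, a ligand of VEGF receptor 1, was higher (49.9 against 23.4 CPM), as were Nrg1, an epithelial growth ligand (11.4 against 4.34 CPM), and Vegfa (12.4 against 5.34 CPM). The BMP ligand gene Bmp4 stood at 465 and 691 CPM and Bmp2 at 108 and 68.6 CPM, and Id3, a gene that BMP signals raise, at 257 and 454 CPM. Chrdl1, a BMP antagonist, had 0 UMIs in the members and 40 UMIs (3.62 CPM) in the YAP-target-high cells.

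Sfrp1, a secreted Wnt inhibitor, was among the abundant genes that stood above the YAP-target-high cells, at 2266 CPM in the members and 1173 CPM there (1.93, 1.88 to 1.98). It was spread evenly, with a median of 20.8 UMIs per 10000 over the members and 23.4% of UMIs in the 55 cells that held most. Rspo3, a Wnt enhancer, stood at 76.6 and 44.3 CPM and Wnt4 at 68.5 and 44.0 CPM. Nkd1, a gene that Wnt signals raise, was lower, at 17.4 and 43.9 CPM, as was Dkk2 at 193 and 302 CPM. The cytokine Il33, an alarmin that acts on innate lymphoid cells, stood at 141 and 63.8 CPM (2.21, 1.99 to 2.46), and the complement gene C3 at 290 and 144 CPM (2.02, 1.88 to 2.17). Tslp, another epithelial and stromal cytokine, was lower, at 21.3 and 57.6 CPM.

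Matrix genes stood on both sides. Of 28 proteoglycan, elastic fibre and matricellular genes, 17 had intervals below 1 and 8 above, and 7 were at least 2-fold lower, against 2.64% of all genes with 20 UMIs. Narrow intervals come with abundance, and of all 1459 genes with at least 100 CPM 38% had intervals below 1 and 22.6% above. Of 17 measured collagens 8 had intervals below 1 and 5 above, and of 16 proteases and inhibitors 6 and 6. The small proteoglycans Ogn (159 against 827 CPM), Fmod (4.64 against 40.6 CPM), Omd (3.09 against 8.78 CPM) and Prelp (233 against 483 CPM) were all lower (the Ogn ratio, 0.193, was 0.330 with the rule applied at 5000 UMIs and 0.439 without the limits on other classes), whereas Dcn was higher (9926 against 8018 CPM). Fbln5, which helps to assemble elastic fibres, stood at 704 CPM in the members, 1950 in the YAP-target-high cells and 328 in the cells with high immediate early genes. Elastic fibre genes did not stand on 1 side, since Eln (294 against 180 CPM), Fbln1 (1275 against 709 CPM) and Mfap4 (1255 against 869 CPM) were higher in the members. The collagens differed little in sum, with a summed ratio of 0.934 over 17 measured genes. Adamts5, a protease that cuts aggrecan and versican, stood at 60.1 against 241 CPM, and its substrate gene Vcan at 220 against 158 CPM.

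Of 15 contractile and actin genes 11 had intervals below 1, against the 38% of genes with at least 100 CPM, and only Lmod1 had one above. Cnn2 stood at 119 against 247 CPM, Tpm1 at 455 against 780 CPM and Actb at 2382 against 3458 CPM. The receptor that drove the reporter, Pdgfrb, was lower in the members (495 against 705 CPM), and Pdgfra, the receptor that marks many gut fibroblasts, was higher (444 against 299 CPM).

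**Figure D2:**
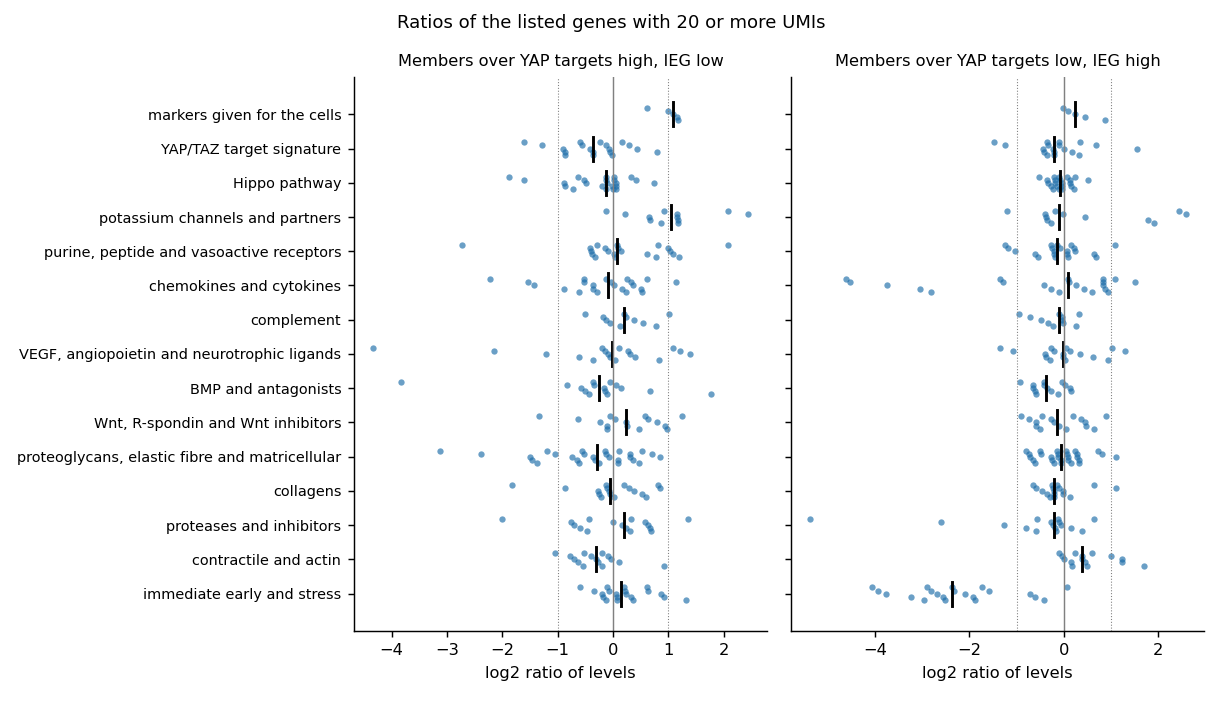
Log2 ratio of the level in the members to the level in the YAP-target-high cells (left) and in the cells with high immediate early genes (right), 1 point for each listed gene with 20 or more UMIs in the sets compared, with black bars at the list medians and dotted lines at 2-fold. Chrdl1, at 0 UMIs in the members, has no point, and immediate early and stress genes other than Klf2 lie left of 0 in the right panel with a median ratio of 0.194 while potassium channel genes lie mostly right of 0 in the left panel with a median ratio of 2.06.

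The opposite directions held between the ends of the range of Vegfc and Amotl2 when gated cells were thinned to 5000 UMIs and binned at 1 depth, without 55 gated cells that held fewer. Thinned counts set the bins only, and the levels below come from all UMIs of the cells. Of the cells with low immediate early genes, 633 then had 0 UMIs of both genes together and 132 had 4 or more, with medians of 9438 and 12554 UMIs before thinning. From the first to the last bin Ramp1 went from 46.2 to 5.32 CPM, Ramp2 from 248 to 72.1, Calcrl from 192 to 50.9, P2ry1 from 72.1 to 17.7 and Cxcl13 from 227 to 43.2. Adm went from 14.1 to 115 CPM, Bdnf from 4.54 to 53.8, Ogn from 226 to 1277, Tead1 from 73.4 to 164 and Lats2 from 37.6 to 86.3. Lats1 went from 14.1 to 10.6 CPM, with the lowest level, 7.99 CPM, in the bin of 3 UMIs. The intervals of its first and last bins overlapped (11.3 to 17.4 and 6.31 to 16.8), so its fall was not resolved. The same directions stood in the cells with high immediate early genes, where Ramp1 went from 51.7 to 6.16 CPM and Adm from 29.9 to 106 CPM. Thinned bins still chose cells by Vegfc and Amotl2 and hold cells from both sides of the limit.

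**Figure D3:**
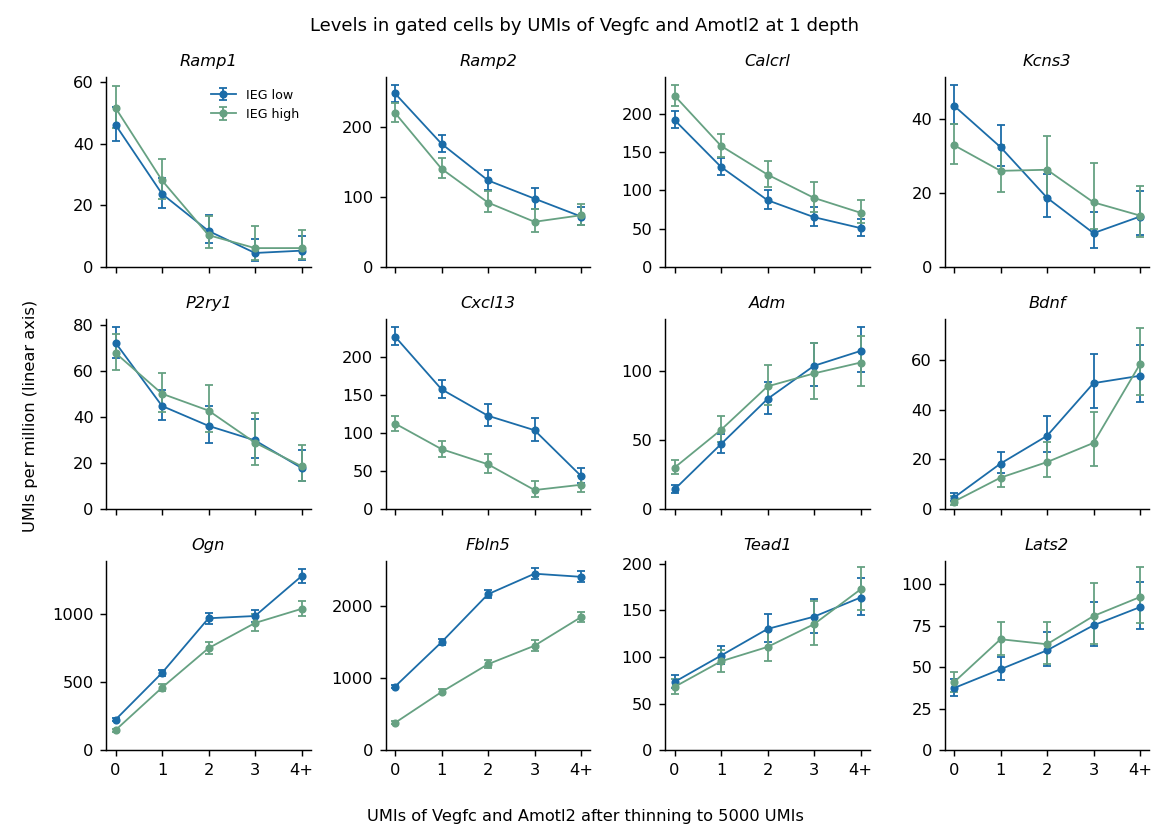
Level of 12 genes in gated cells binned by their UMIs of Vegfc and Amotl2 together after thinning to 5000 UMIs. Levels are in CPM of all UMIs of the cells, not of the thinned counts. Axes are linear, with exact 95% Poisson intervals, for cells with low and with high immediate early genes. Ramp1 fell below 6.2 CPM at 4 or more UMIs in both, Adm lay above 106 CPM there, and Cxcl13 lay lower in the cells with high immediate early genes in every bin.

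Against the cells with high immediate early genes, 33 of 8386 measured genes (0.394%) were at least 2-fold higher in the members and 192 (2.29%) at least 2-fold lower, with a median ratio of 0.994. The count of higher genes was 111 without the limits on other classes, 79 and 58 in the columns marked M and F, and 55 with the rule applied at 5000 UMIs. The lower group held 17 of the 21 measured immediate early and stress genes that the rule did not use, against 3.53% of all genes with 20 UMIs. Junb stood at 325 against 1676 CPM, Btg2 at 143 against 1342, Nr4a1 at 29.2 against 226 and Atf3 at 6.77 against 113. Hspa1a, a heat-shock gene with the near-identical copy Hspa1b, stood at 47.4 against 354 CPM, and reads of these copies may have been split. Klf2 did not separate the sets (404 against 385 CPM).

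Chemokine and cytokine genes stood on both sides. Of 22 measured, 8 had intervals above 1 and 9 below, against 11.9% and 14.2% of all genes with 20 UMIs. Of the same genes 2 were at least 2-fold higher and 7 at least 2-fold lower, against 1.59% and 3.53%, and the median ratio was 1.06. Among the lower ones Cxcl1, a neutrophil chemokine, stood at 4.64 against 106 CPM, Cxcl10 at 22.8 against 188, Ccl2, a monocyte chemokine, at 13.3 against 93.7, and the cytokine Il6 at 2.90 against 39.0. Ptgs2, which makes prostaglandins, stood at 6.38 against 78.8 CPM and Icam1, an adhesion molecule, at 152 against 787. The level of Cxcl1 in the members lay under its bound for RNA from other cells, 5.15 CPM. In the YAP-target-high cells, which share the low immediate early limit, Cxcl1 stood at 13.5, Ccl2 at 13.8 and Il6 at 2.44 CPM, so these genes were low on that side of the limit as well.

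Higher than in the cells with high immediate early genes were a protease, a hormone precursor, contractile genes and other chemokines. Mmp10, a stromelysin, stood at 50.7 CPM in the members and 5.96 there (8.50, 5.59 to 13.5), and Agt, which encodes angiotensinogen, at 82.6 and 16.6 CPM (4.96, 3.83 to 6.52). The Agt ratio was 8.67 in the columns marked M, 2.74 in those marked F and 2.89 in cells with no more than 5% mitochondrial UMIs, and Mmp10 had 0 UMIs in the F-marked cells with high immediate early genes. Acta2, smooth muscle actin, stood at 402 and 123 CPM, Tagln at 188 and 80.0, Myl9 at 178 and 75.8, and Fhl2, a LIM cofactor, at 219 and 79.8. The chemokine genes Cxcl14 (106 and 37.3 CPM), Ccl11 (1774 and 923 CPM) and Ccl8 (36.4 and 17.1 CPM) and the neurotrophin gene Ntf3 (42.7 and 21.1 CPM) were also higher. Cxcl14 was higher still in the YAP-target-high cells, at 576 CPM in the 99 of them highest in Agt and 150 CPM in the other 885. The Acta2 ratio, 3.26, was 4.97 without the limits on other classes. Of the 15 contractile and actin genes 11 had intervals above 1 here and none below (37.6% and 24.8% of all genes with at least 100 CPM), while against the YAP-target-high cells 11 had intervals below 1. Acta2, Tagln and Myl9 in the members lay between their levels in these sets. The 4 measured smooth muscle markers summed to 82.0 CPM in the members and 60.9 CPM in the cells with high immediate early genes (1.35, 1.15 to 1.58). The part of smooth muscle cells in this difference was not tested. Mmp10 and Fhl2 were on the list for the vFB3 class, whose other genes Tacr1, Itga8 and P2rx1 the rule had limited. Mmp10 and Fhl2 together stood at 270 CPM in the members and 317 CPM in the YAP-target-high cells (0.850, 0.798 to 0.905).

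Within the members these genes were not spread evenly. Mmp10 had a UMI in 56 cells, and Agt in 162. The 55 members with the highest Agt level held Acta2 at 6.01-fold the level of the other 487 members (5.50 to 6.56), Tagln at 5.26-fold, Mmp10 at 6.78-fold, Cxcl14 at 5.28-fold, Wnt4 at 4.03-fold, Fhl2 at 2.57-fold and Igfbp3 at 2.38-fold. The smooth muscle marker Myh11 stood at 9.37-fold in them (6.36 to 13.8), with 60 of its 113 UMIs there, and the part of smooth muscle cells was not tested. The same cells held C3 at 0.0612-fold, Fbln1 at 0.210-fold, Mmp3 at 0.0824-fold and Dkk2 at 0.117-fold. The 55 members with the highest C3 level showed the mirror image, with Mmp3 at 5.27-fold, C4b at 2.50-fold and Fbln1 at 1.92-fold, and Acta2 at 0.0734-fold and Fhl2 at 0.185-fold. No cell was in both groups of 55. These anchor genes were chosen after their values had been seen, and each group was picked by its anchor alone.

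The same opposition stood in the 984 YAP-target-high cells. The 99 of them highest in Agt held Mmp10 at 6.87-fold, Cxcl14 at 3.83-fold and Acta2 at 2.70-fold the level of the other 885, with Myl9 at 1.58-fold and Tagln at 1.23-fold (1.11 to 1.37), and C3 at 0.103-fold and Fbln1 at 0.304-fold. The ratios of Acta2, Tagln, Myl9, Cxcl14, Fhl2, Igfbp3, Ccl11 and Myh11 were lower there than in the members, that of Wnt4 was higher (5.55-fold), and the difference between the sets was not tested.

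The 5 given markers did not follow these ends as a group. In the members Cxcl13 was higher in the Agt-high cells (2.31-fold, 2.00 to 2.67) and also in the C3-high cells (1.56-fold, 1.31 to 1.84), and Kcns3 (2.38-fold) and Lrrc55 (1.53-fold, 1.03 to 2.21) were higher in the Agt-high cells. Ramp2 (1.12-fold, 0.943 to 1.32) and P2ry1 (1.21-fold, 0.883 to 1.63) did not separate the Agt-high cells from the other members, nor the C3-high cells. Ramp1, which is not among the 5, was at 0.331-fold in the Agt-high cells and 1.84-fold in the C3-high cells. The 55 members highest in Cxcl13 held Igfbp3 at 2.00-fold and Mmp3 at 0.0644-fold, and 14 of them (25.5%) were among the 55 highest in Agt.

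**Figure D4:**
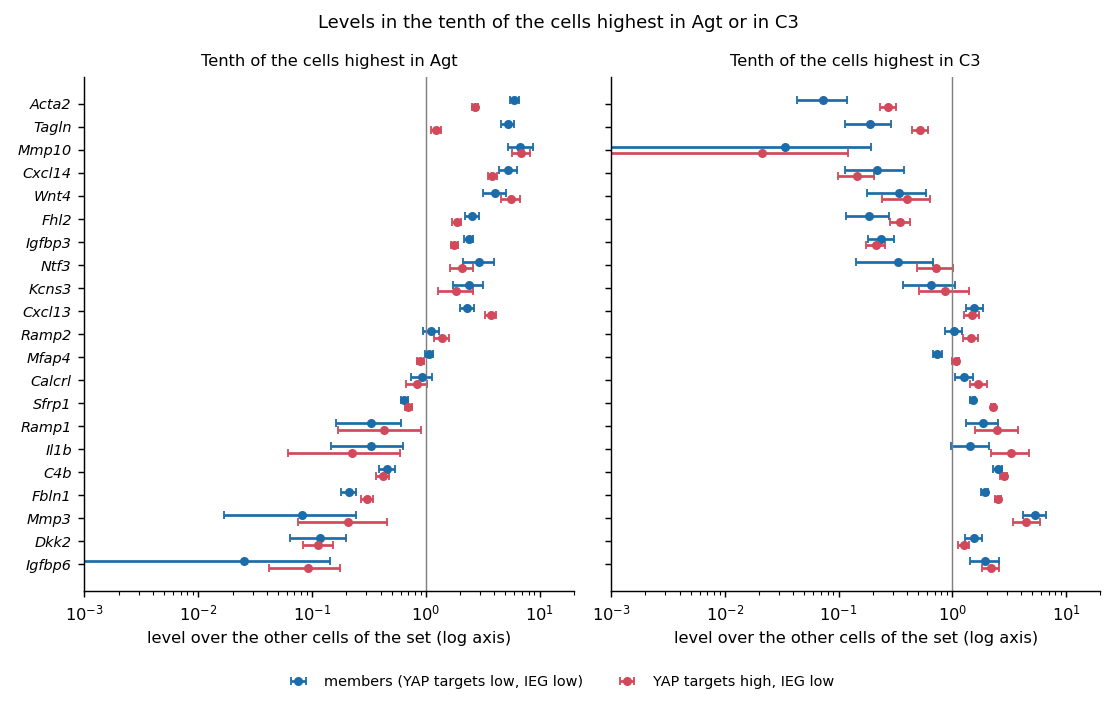
Ratio of levels, on a log axis, between the cells highest in Agt (left) or in C3 (right) and the other cells of the same set, for the members (55 against 487 cells) and the YAP-target-high cells (99 against 885 cells). Points carry exact 95% intervals, those that run below the axis are cut at its end, and genes from Acta2 to Ntf3 lie right of 1 on the left and left of 1 on the right while C4b, Fbln1 and Mmp3 do the reverse in both sets.

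Against all 3566 other cells of the library, 17 of 8405 measured genes (0.202%) were at least 2-fold higher in the members and 212 (2.52%) at least 2-fold lower. Beside Kcns3, Lrrc55 and P2ry1 the higher group held Epha5, an ephrin receptor (26.1 against 9.20 CPM), Vwc2, a secreted protein with von Willebrand factor C domains (70.4 against 25.7 CPM), Il1b (45.8 against 16.3 CPM) and Mfap4 (1255 against 607 CPM). Vwc2 stood above every other set, with 29.6 CPM in the YAP-target-high cells and 38.0 CPM in the cells with high immediate early genes. Il1b followed the YAP limit alone, at 44.7 CPM in the cells with high immediate early genes and 13.9 CPM in the YAP-target-high cells. Lower genes included Cd81, at 4.64 CPM against 268 CPM in the cells outside the gate and 1.36 CPM in the YAP-target-high cells.

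Igkc, an immunoglobulin gene of plasma cells, and Defa24, a defensin gene of Paneth cells, were in the higher group too, at 25.1 against 9.03 and 26.1 against 12.1 CPM, although the summed immune and epithelial markers were as given above. All 130 Igkc UMIs lay in 55 cells and 20% of them in 1 cell. Of the epithelial markers only Krt19 had a UMI. The part of other cell types in these genes was not tested.

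**Figure D5:**
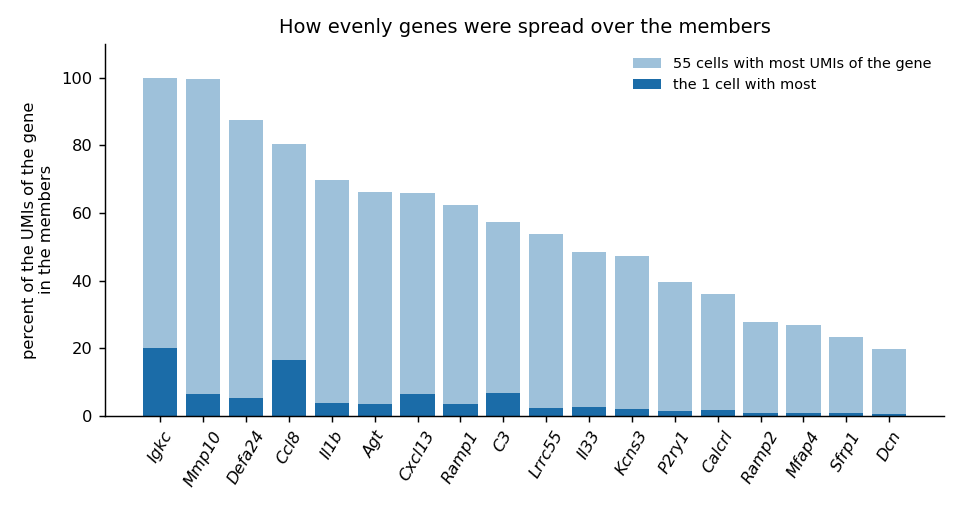
Percent of the UMIs of a gene in the members that lay in the 55 cells with most of them (light bars) and in the 1 cell with most (dark bars, drawn over the light ones), on a linear axis from 0. Dcn is the most even of the genes shown at 19.7%, Ramp2 lies at 27.8%, Cxcl13 at 65.9%, and Mmp10 and Igkc lie at 99.6% and 100%.

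Cells on either side of the limits were set side by side. For Vegfc and Amotl2 a cell with 1 UMI falls inside or outside by its depth alone, so these bands do not compare levels of YAP targets. The 80 members with a sum of Vegfc and Amotl2 of 0.8 to 1 UMI per 10000 had Ramp2 at 231 CPM, Ramp1 at 42.0 and Kcns3 at 49.97, and the cells just above the limit, up to 1.2, had 263, 47.3 and 41.2. Cxcl13 was lower just inside, at 109 CPM, than just outside, at 399 CPM. These bands differed in depth, with medians of 10731.5 and 9255 UMIs. At the other limit, the 34 members with a sum of 12 to under 15 had Junb at 1276 CPM, and the 25 cells from 15 to 18 had it at 1054 CPM.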

How the data were processed

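Single-cell RNA of sorted stromal cells was read in 4 samples, of which 1 library, LATS1/2 KO 1w, is reported. Per the labels and methods, the authors aligned reads with Cell Ranger (3.0.2 in the submitters' processing notes, with Seurat 3.0.1) to mm10, kept cells with 1000 to 6000 genes and at most 7% mitochondrial UMIs and genes in at least 3 cells, removed doublets by gating and gene number, and removed immune and endothelial cells. The deposited values are the natural log of 1 plus UMIs per 10000. After exponentiation 100.00% of 13789523 nonzero values were whole multiples of 1 UMI (tolerance 0.001), which gave 46054627 UMIs in 4108 cells (median 10726, range 1965 to 35727). No cell and no doublet was removed.

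Members, gene lists and comparisons were chosen with earlier results of these data known. Levels are pooled CPM with exact Poisson intervals, intervals of ratios come from the exact binomial test conditional on the summed UMIs, those of shares are Clopper-Pearson, all at 95% and for counting error only. Genes with at least 10 CPM in both sets pooled were measured, and listed genes with at least 20 UMIs. Genes named are those of the rule, those of the 36 lists, and the 15 highest and 15 lowest ratios per comparison among genes with a UMI in at least 10% of the cells of the higher set, without the rule's and sex-linked genes. Other genes were named after their values had been seen, and some genes that met the rule are not reported here. The 4014 cells with 5000 UMIs or more were thinned to that depth without replacement with a fixed seed. Calculations used Python 3.11.15, NumPy 2.4.6, SciPy 1.17.1 and Matplotlib 3.10.9, and were tested on simulated counts. Positions came from GENCODE M21 and upstream bases from RefSeq (GRCm38.p6).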

Additional observations from a re-analysis of the deposited data

How the results depend on the processing

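With 1 library no replicate could be left out, and no paired analysis was possible because no groups of samples were compared. All 311 values of 26 single-gene ratios under the alternatives kept their direction, and the Mmp10 ratio had none in columns marked F, where its UMIs in the other set were 0. The alternatives drew on the same library and the genes were chosen with earlier results known, so kept directions are no independent check. The share of cells that met the rule, 13.2%, was 10.8% with no UMI of Vegfc or Amotl2 allowed, 19.8% with at most 2 per 10000, 11.98% with Fos, Fosb and Egr1 below 10, 18.1% with the rule applied at 5000 UMIs, 14.6% in cells of 8000 to 14000 UMIs, 9.44% at no more than 5% mitochondrial UMIs and 20.1% without the limits on other classes. The Cxcl13 ratio to the YAP-target-high cells, 1.53, was 1.79 with no UMI allowed, 2.41 with at most 2 per 10000, 1.97 at 5000 UMIs, 1.41 in cells of 8000 to 14000 UMIs, 1.81 at no more than 5% mitochondrial UMIs, 1.22 and 1.85 in columns marked M and F, and 1.39 from means of per-cell levels. The Lats1 ratio, 1.68, was 1.17 at 5000 UMIs. The ratio of the YAP/TAZ target signature, 0.887, was 0.910 with at most 2 per 10000, 0.920 at 5000 UMIs, 0.863 in cells of 8000 to 14000 UMIs, 0.914 at no more than 5% mitochondrial UMIs, 0.843 in columns marked F and 0.865 without the limits on other classes. Genes at least 2-fold above the YAP-target-high cells, 39, were 71 with at most 2 per 10000, 83 at no more than 5% mitochondrial UMIs, 64 in columns marked F and 23 from means of per-cell levels. Those above the cells with high immediate early genes, 33, were 55 at 5000 UMIs, 79 and 58 in columns marked M and F and 111 without the limits on other classes. A filter of 1 UMI gave 1591 and 1824 genes above and below the YAP-target-high cells and 1560 and 1843 for the other contrast, and a filter of 50 CPM gave 6 and 47, and 10 and 65. The cause of these shifts was not tested, apart from the filters, which change how many genes are measured.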
